A study of Mus musculus with 6 samples.

Results

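The genes described here are Ly6a, Ly6c1, Ly6c2 and Ly6e, the Ly6 surface antigen genes known from T cells. They were taken by symbol, and all 4 had a row among the 19390 gene symbols of the count table. RNA sequencing measured their transcripts in splenic γδ T cells from mice aged 6 weeks, isolated by flow cytometry. Such cells carry a receptor of γ and δ chains in place of the α and β chains of most T cells. Of the 6 libraries, 3 were labelled KO and 3 WT. The KO-labelled libraries were taken as the mice of genotype USF3-f/f; CD2-cre, and the WT-labelled ones as USF3-f/f mice without Cre, so both labels carried the floxed allele and the Cre transgene itself was present under the KO label alone. CD2-cre expresses Cre recombinase in lymphoid cells in general and not in γδ T cells alone. Strain, sex, the number of mice behind a library and any culture between sort and lysis were not stated. The p-values below therefore measure the spread between these libraries, which may be technical.

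Ly6 proteins are small cell surface proteins that are held in the membrane by a glycosylphosphatidylinositol (GPI) lipid anchor and folded by conserved disulfide bonds. In the mouse most of their genes lie in 1 cluster on chromosome 15. Ly6a encodes Sca-1, an antigen of haematopoietic stem cells and of activated lymphocytes. Ly6c1 and Ly6c2 encode the closely related antigens read out together as Ly6C, which is carried by memory-like T cells, monocytes and plasma cells. Ly6e encodes an antigen first described on thymocytes and later known for limiting or aiding the entry of several viruses. Transcription of Ly6a, Ly6c and Ly6e is known to be raised by interferons.

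Libraries summed to between 34644862 and 35806402 counts, and 12810 genes passed the low-count filter and were tested. Usf3, the targeted gene, had 2532, 2360 and 2348 counts in KO-labelled replicates 1, 2 and 3, against 2499, 2527 and 2593 in WT-labelled ones, and the labels overlapped. Its log2 fold change was -0.076 ± 0.043 (SE; edgeR quasi-likelihood test, Benjamini-Hochberg adjusted p = 0.261), and since the floxed exons were not stated, a count over the whole gene does not check the labels. T cell markers were high, with Cd3e at 328 ± 4.56 CPM in KO-labelled and 346 ± 4.05 in WT-labelled libraries (SD, n = 3 each). Of 6 such markers tested, 3 were lower and 0 higher, beside 10.1% and 7.23% of all tested genes. The lower ones were Cd3g, Cd3d and Cd3e, with log2 fold changes of -0.17, -0.12 and -0.076 (edgeR adjusted p = 5.91e-05, 0.00287 and 0.0364). CPM are counts scaled to library size, with TMM factors between libraries. Of 10 γδ T cell markers, 4 could be read, and they summed to between 9.64 and 10.8 CPM in KO-labelled libraries and between 13.7 and 15.7 CPM in WT-labelled ones. The γδ receptor genes among these markers had no row and are not analysed here.

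All Ly6 members of appreciable level were lower in KO-labelled cells, in a graded order. Ly6c2 fell by 52.0%, Ly6a fell by 26.4% and Ly6e fell by 6.65%, and Ly6c1 was close to the limit of detection. Of the 4 members, 3 passed the test, all lower, where 17.3% of all tested genes passed in either direction, 10.1% lower and 7.23% higher. For each of the 4 members the KO-labelled libraries lay below every WT-labelled library in CPM, as was the case for 16.7% of tested genes, while 32.1% had no overlap in either direction. Together the 4 genes took 0.190%, 0.189% and 0.192% of the counts of KO-labelled replicates 1, 2 and 3, against 0.252%, 0.243% and 0.247% of those of WT-labelled replicates. In these bulk samples, fewer cells that carry a transcript and less of it per cell cannot be told apart.

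**Figure D1:**
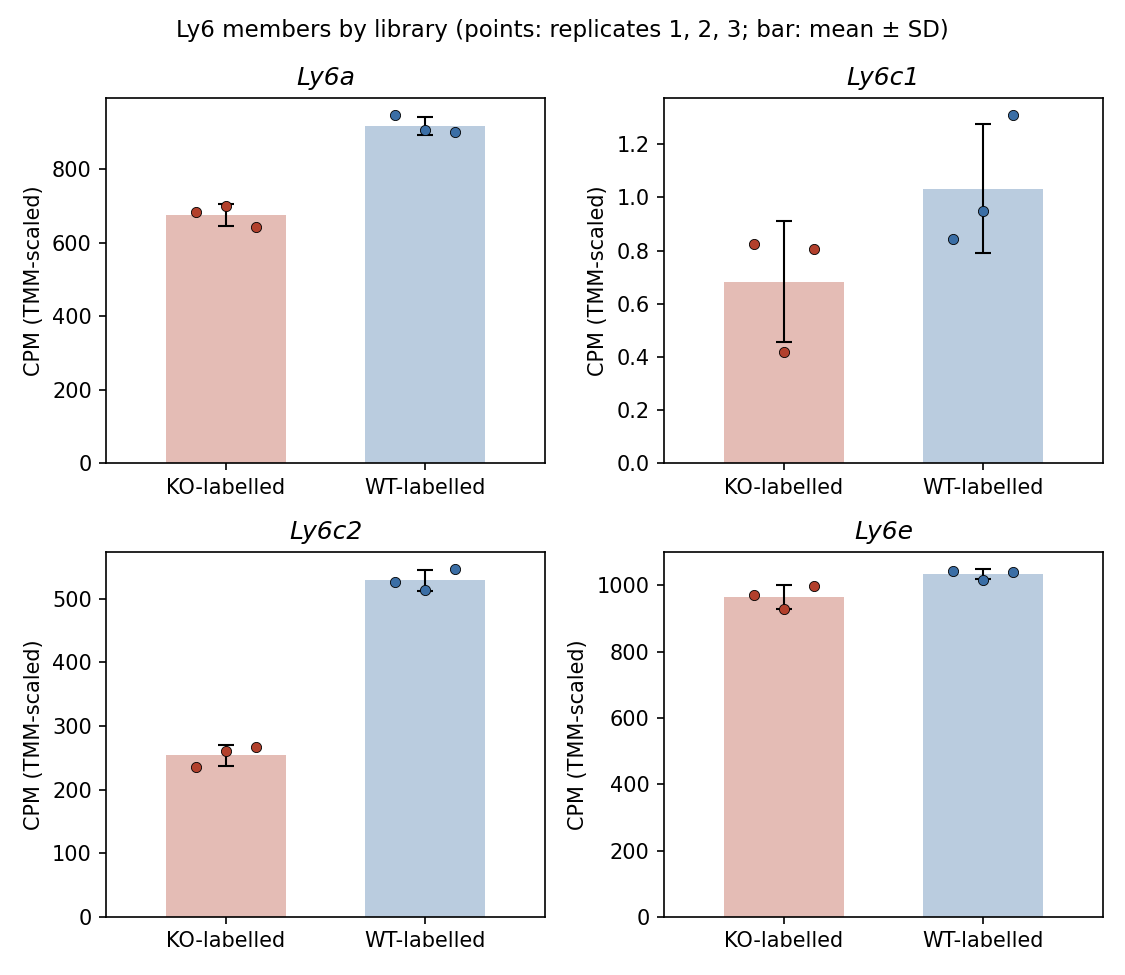
Level of each Ly6 member in CPM (linear axes from 0, 1 panel a gene) in KO-labelled and WT-labelled libraries; points are replicates, bars means and error bars SD (n = 3 each). Ly6c2 shows the widest gap relative to its level among the abundant genes, with 235 to 267 CPM in KO-labelled and 514 to 546 CPM in WT-labelled libraries, and Ly6e the narrowest gap among them.

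Ly6c2 had 8261, 9302 and 9284 counts in KO-labelled replicates 1, 2 and 3, against 18742, 17869 and 19197 counts in WT-labelled replicates. In CPM this was 235, 260 and 267 in KO-labelled and 527, 514 and 546 in WT-labelled libraries. Every KO-labelled library stood far below every WT-labelled one, and replicate 1 was the lowest of the KO-labelled libraries. The means were 254 ± 16.8 CPM in KO-labelled and 529 ± 16.3 CPM in WT-labelled libraries (SD, n = 3 each). The log2 fold change was -1.06 ± 0.035 (SE; 95% interval -1.13 to -0.99; edgeR adjusted p = 5.47e-16), the 120th lowest of 12810 tested genes. Between libraries of a label Ly6c2 varied by a coefficient of 6.60% in KO-labelled and 3.08% in WT-labelled libraries, where counting error would give 1.06% and 0.733%.

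Ly6a, the Sca-1 gene, had 24071, 25091 and 22354 counts in KO-labelled replicates 1, 2 and 3, against 33689, 31589 and 31681 counts in WT-labelled replicates. In CPM the values were 685, 701 and 643 in KO-labelled libraries and 947, 908 and 901 in WT-labelled ones without overlap. The log2 fold change was -0.44 ± 0.028 (SE; 95% interval -0.50 to -0.39; edgeR adjusted p = 3.42e-11). KO-labelled replicate 3 was the lowest KO-labelled library for Ly6a and the highest for Ly6c2, so the 2 genes did not follow the same order among the KO-labelled libraries.

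Ly6e had 34125, 33213 and 34687 counts in KO-labelled replicates 1, 2 and 3, against 37134, 35378 and 36613 counts in WT-labelled replicates. In CPM it stood at 971, 927 and 998 in KO-labelled libraries and at 1043, 1017 and 1042 in WT-labelled ones. The labels did not overlap, but KO-labelled replicate 3 came close to WT-labelled replicate 2. The log2 fold change was -0.099 ± 0.024 (SE; 95% interval -0.15 to -0.049; edgeR adjusted p = 0.00513). The call was lost on log2 FPKM, with adjusted p = 0.0719 with a pseudocount of 0.1 and 0.0717 with a pseudocount of 1 (limma-trend).

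Ly6c1 had 29, 15 and 28 counts in KO-labelled replicates 1, 2 and 3, against 30, 33 and 46 counts in WT-labelled replicates. As CPM this was 0.683 ± 0.229 in KO-labelled and 1.03 ± 0.244 in WT-labelled libraries (SD, n = 3 each), and the closest libraries of the labels stood at 0.825 and 0.843 CPM. The log2 fold change of -0.60 ± 0.38 (SE) did not pass (edgeR adjusted p = 0.320), and its 95% interval from -1.37 to 0.18 holds both no difference and a change as large as that of Ly6c2. The expected counting error, as a coefficient of variation, was 20.4% in KO-labelled and 16.6% in WT-labelled libraries, beside a measured 33.5% and 23.6%.

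Length-scaled levels set Ly6c2 apart from Ly6e in WT-labelled libraries but not in KO-labelled ones. By the deposited FPKM, Ly6a was the highest in every library, at 687, 699 and 644 in KO-labelled and 944, 903 and 893 in WT-labelled replicates. Ly6c2 followed in WT-labelled libraries with 569, 553 and 586 FPKM, well apart from Ly6e with 314, 305 and 311 FPKM. In KO-labelled libraries Ly6c2 stood at 255, 281 and 290 FPKM and Ly6e at 294, 279 and 301 FPKM, and these 2 ranges overlapped, with Ly6e above Ly6c2 in replicates 1 and 3 and below it in replicate 2. Ly6c1 came last everywhere, at 0.408 ± 0.137 FPKM in KO-labelled and 0.612 ± 0.143 FPKM in WT-labelled libraries (SD, n = 3 each). By mean FPKM over 12810 tested genes, Ly6a ranked 96th under the KO label and 63rd under the WT label, Ly6c2 220th and 109th, and Ly6e 204th and 195th. The FPKM values imply gene lengths of 1002 bp for Ly6a, 925 bp for Ly6c2, 3322 bp for Ly6e and 1682 bp for Ly6c1, and the order rests on them.

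**Figure D2:**
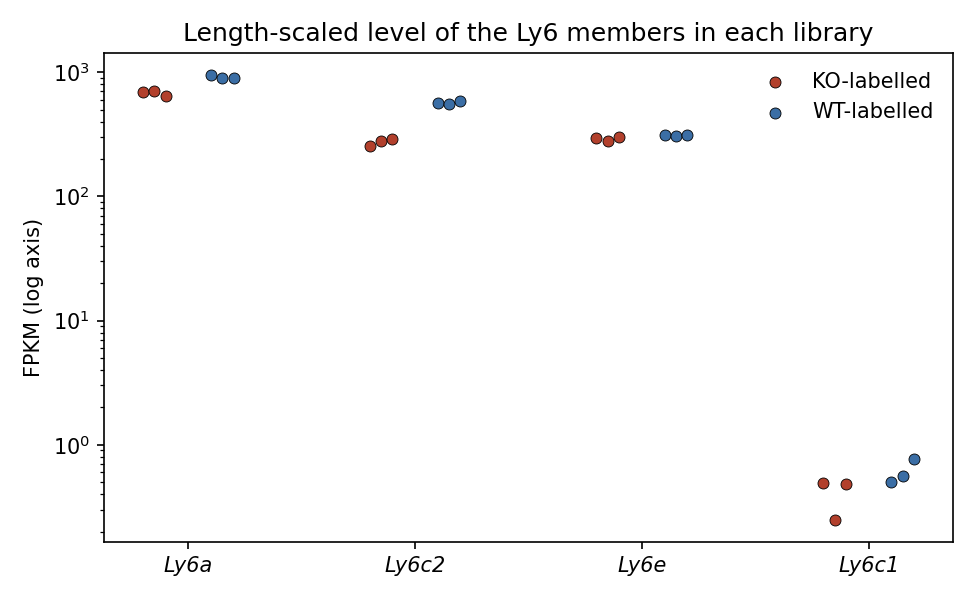
Deposited FPKM of the Ly6 members in each library (log axis), with KO-labelled libraries left of WT-labelled ones for each gene. Ly6c2 lies between Ly6a and Ly6e in WT-labelled libraries and within the range around Ly6e in KO-labelled ones, and Ly6c1 stays under 1 FPKM.

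Ratios of 2 members within a library do not depend on the scaling between libraries. The count ratio of Ly6c2 to Ly6e was 0.242, 0.280 and 0.268 in KO-labelled replicates 1, 2 and 3 and 0.505, 0.505 and 0.524 in WT-labelled ones, and the ratio of Ly6c2 to Ly6a was 0.343, 0.371 and 0.415 in KO-labelled and 0.556, 0.566 and 0.606 in WT-labelled libraries. The ratio of Ly6a to Ly6e was 0.705, 0.755 and 0.644 in KO-labelled and 0.907, 0.893 and 0.865 in WT-labelled libraries. In each of these ratios every KO-labelled library was lower, with KO minus WT differences of -0.96, -0.62 and -0.34 on the log2 scale. A two-sided exact permutation test gave p = 0.1 for each, the smallest p that 3 libraries against 3 allow (0.125 after Benjamini-Hochberg adjustment over 5 ratios). The log2 ratio of Ly6c2 to Ly6c1 was 8.60 ± 0.59 in KO-labelled and 9.02 ± 0.30 in WT-labelled libraries (SD, n = 3 each), with p = 0.3 by the same exact test.

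Ly6c1 and Ly6c2 are near-identical in their coding sequence, which bears on how reads are split between them. In the GENCODE M21 transcripts (GRCm38), the pair of complete coding sequences with the highest identity was aligned. Its sequences of 396 bases differ at 9 positions, and the longest identical run is 188 bases. The first 120 bases hold 6 of the 9 differences and are shown because within the coding sequence only reads that cover such bases tell the genes apart; capitals mark bases at which the genes differ.
Ly6c1: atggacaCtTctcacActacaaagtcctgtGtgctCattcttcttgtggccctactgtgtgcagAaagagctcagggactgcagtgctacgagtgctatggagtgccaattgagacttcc
Ly6c2: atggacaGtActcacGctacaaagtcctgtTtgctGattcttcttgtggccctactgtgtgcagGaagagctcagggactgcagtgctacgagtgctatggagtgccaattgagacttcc

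Of all 100-base windows of the annotated protein-coding transcripts, 14.9% of those of Ly6c2 and 10.1% of those of Ly6c1 also occur in another gene. With windows of 50 bases these shares were 31.2% and 32.8%, and with windows of 150 bases 5.44% and 2.29%. Ly6a shared 19.0% of its 50-base windows, mostly with Ly6c1, and 1.45% of its 100-base windows, and Ly6e shared none at any of the 3 lengths. Read length and the handling of reads with several matches were not stated, so the split of counts among Ly6a, Ly6c1 and Ly6c2 is uncertain to that extent. Ly6c1 held 0.350%, 0.161% and 0.301% of the Ly6c counts in KO-labelled replicates 1, 2 and 3 and 0.160%, 0.184% and 0.239% in WT-labelled ones. For KO-labelled replicate 1, the share of Ly6c1 had an exact 95% binomial interval from 0.234% to 0.502%, which covers counting error only. With both genes summed, which does not depend on how shared reads were split between them, the log2 fold change was -1.06 ± 0.035 (SE; edgeR adjusted p = 5.60e-16).

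**Figure D3:**
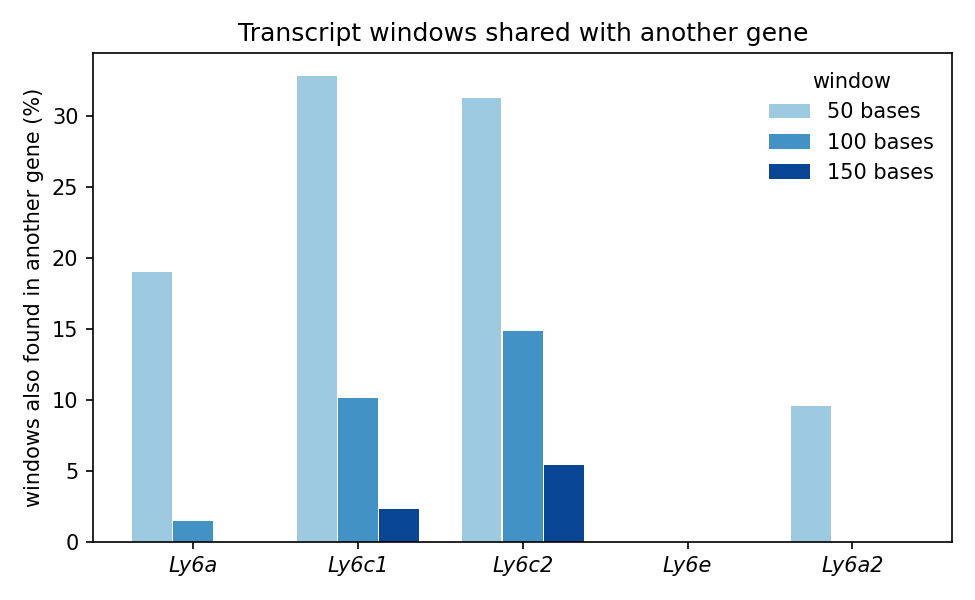
Share of windows of 50, 100 and 150 bases in annotated transcripts that also occur in a transcript of another gene (GENCODE M21, either strand), for the Ly6 members and Ly6a2. Sharing is highest in Ly6c1 and Ly6c2, at 32.8% and 31.2% with 50 bases, and absent in Ly6e.

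Ly6a2, which lies next to Ly6c2 in the cluster, also fell. It had 503, 519 and 465 counts in KO-labelled replicates 1, 2 and 3, against 752, 781 and 756 counts in WT-labelled ones. The means were 14.1 ± 0.600 CPM in KO-labelled and 21.7 ± 0.682 CPM in WT-labelled libraries (SD, n = 3 each; log2 fold change -0.63 ± 0.072, SE; edgeR adjusted p = 8.11e-07). Of the windows of its annotated transcripts, 9.58% of those of 50 bases occur in another gene, Ly6a and Ly6i among them, and 0% of those of 100 bases. Its counts were 0.0209, 0.0207 and 0.0208 of those of Ly6a in KO-labelled replicates and 0.0223, 0.0247 and 0.0239 in WT-labelled ones, so the ratio to Ly6a was lower in every KO-labelled library (exact permutation p = 0.1, two-sided).

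The RefSeq promoter windows of GRCm38.p6 (250 bases before to 50 after a gene's start) matched Ly6c1 and Ly6c2 of the 4 members. The windows of Ly6c2 and of Ly6a2 are identical at 290 of 300 aligned positions, 96.7%, whereas that of Ly6c1 matches the Ly6c2 window at 208 of 282, 73.8%. They are shown because Ly6c2 and Ly6a2 both fell, while Ly6c1 is the paralogue near the detection limit, whose change could not be told from that of Ly6c2. Ly6a and Ly6e also fell and had no window. Whether likeness of the windows bears on the change was not tested. Capitals mark bases of Ly6a2 and Ly6c1 with no identical partner in the Ly6c2 window, and all are read from the minus strand, at chr15:75111922-75112221 for Ly6c2, chr15:75135079-75135378 for Ly6a2 and chr15:75048788-75049087 for Ly6c1.
Ly6c2: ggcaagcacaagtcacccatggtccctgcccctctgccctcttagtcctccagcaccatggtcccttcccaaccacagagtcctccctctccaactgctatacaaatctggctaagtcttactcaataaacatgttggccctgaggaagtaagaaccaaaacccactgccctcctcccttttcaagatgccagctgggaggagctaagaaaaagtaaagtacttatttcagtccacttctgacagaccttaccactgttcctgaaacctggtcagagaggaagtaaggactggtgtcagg
Ly6a2: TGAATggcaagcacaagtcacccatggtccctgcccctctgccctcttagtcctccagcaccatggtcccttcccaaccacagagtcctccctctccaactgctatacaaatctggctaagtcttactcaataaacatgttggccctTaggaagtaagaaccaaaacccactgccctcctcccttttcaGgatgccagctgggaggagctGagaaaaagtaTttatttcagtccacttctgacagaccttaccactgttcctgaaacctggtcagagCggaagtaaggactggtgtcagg
Ly6c1: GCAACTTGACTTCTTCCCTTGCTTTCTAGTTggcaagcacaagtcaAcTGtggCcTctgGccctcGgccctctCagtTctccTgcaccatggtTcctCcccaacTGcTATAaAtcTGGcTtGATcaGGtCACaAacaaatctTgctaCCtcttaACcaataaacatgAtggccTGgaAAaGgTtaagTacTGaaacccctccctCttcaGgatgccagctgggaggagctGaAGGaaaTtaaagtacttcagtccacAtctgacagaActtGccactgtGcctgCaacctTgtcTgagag

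Both strands of these windows, and of the second listed window of Ly6c1 and of Ly6c2, were searched for 3 motifs. These were the interferon-stimulated response element as TTTC, 2 bases of any kind and TTTC, the STAT site as TTCNNNGAA and the E-box CACGTG that upstream stimulatory factors are known to bind. None of the windows held any of them. Of 32544 promoter windows of the same length, 3.45% held the first, 8.33% the second and 7.17% the third, so an absence is the usual case and says only that these letters are not in these windows.

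In the RefSeq order of chromosome 15 (GRCm38.p6, used for order only), 39 protein-coding genes span the Ly6 cluster and 5 genes on each side, and 14 of them were tested. Of these, 4 were lower, namely Ly6e, Ly6a, Ly6c2 and Ly6a2, and 1 was higher, beside 10.1% lower and 7.23% higher over all tested genes. Ly6e, Ly6a and Ly6c2 are the members described above, so this count in part repeats their result. The higher one was Top1mt, a mitochondrial topoisomerase gene, at 11.4 CPM in KO-labelled and 7.90 CPM in WT-labelled libraries (log2 fold change 0.52 ± 0.11, SE; edgeR adjusted p = 0.00109). Ly6k and Ly6m, cluster members with 6 to 33 counts per library, had log2 fold changes of -1.12 and -0.080 and did not pass (edgeR adjusted p = 0.105 and 0.927). Lynx1, whose product binds nicotinic receptors, was at -0.41 and did not pass (adjusted p = 0.452), and its value was -0.17 without WT-labelled replicate 1, -0.19 without KO-labelled replicate 2 and -0.69 without KO-labelled replicate 3. Them6, which lies within the cluster, and the flanking genes Jrk, Arc, Zfp41 and Zc3h3 had log2 fold changes of -0.015, 0.32, 0.11, 0.11 and 0.21 and did not pass. The median over the 14 genes was -0.089, beside 0.0014 over all tested genes.

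**Figure D4:**
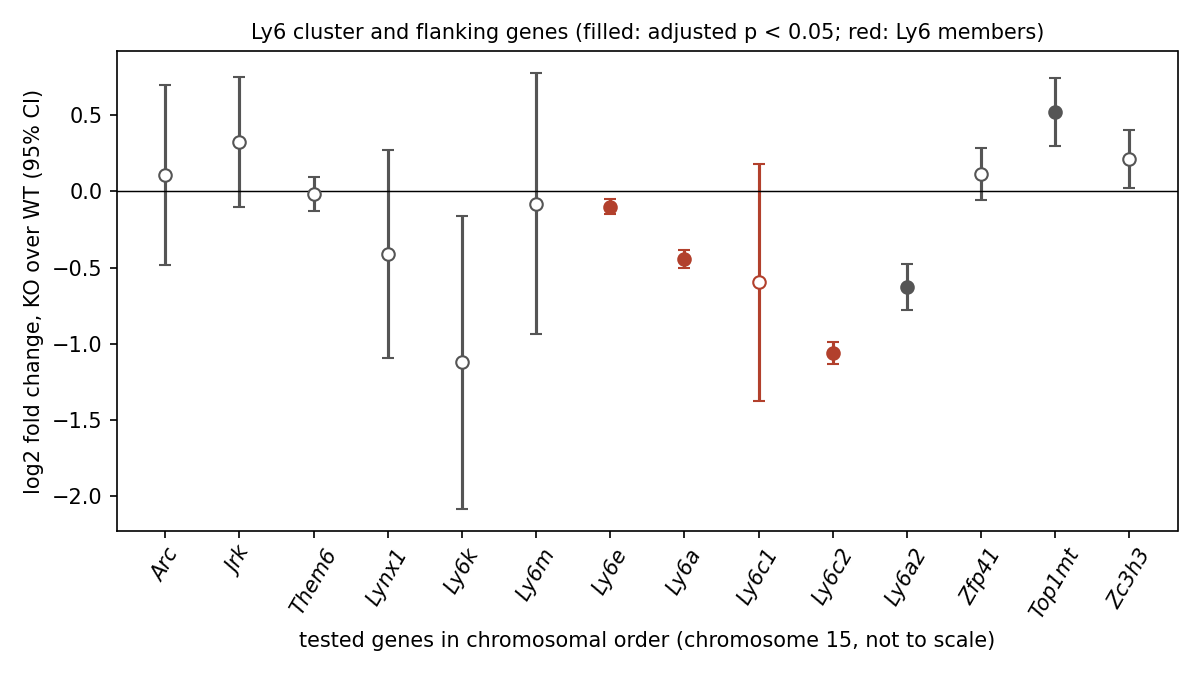
Log2 fold change of KO-labelled over WT-labelled libraries with 95% intervals for the 14 tested genes in and beside the Ly6 cluster, in chromosomal order and not to scale. Filled points passed an adjusted p of 0.05 (edgeR) and Ly6 members are red; Ly6e, Ly6a, Ly6c2 and Ly6a2 lie below 0 and Top1mt above it.

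Beyond the 4 members, 16 of 43 listed genes of the wider Ly6/uPAR family had a row, 7 were tested and 2 were lower, Ly6a2 and Plaur, beside the 10.1% lower over all tested genes. Plaur encodes the urokinase receptor, a GPI-anchored relative of the Ly6 proteins, and had 10, 7 and 18 counts in KO-labelled replicates 1, 2 and 3, against 42, 55 and 37 counts in WT-labelled ones (log2 fold change -1.93 ± 0.41, SE; edgeR adjusted p = 0.00167). Ly6g5b and Lypd6b, the other tested members, had log2 fold changes of 0.077 and -0.093 and did not pass (adjusted p = 0.480 and 0.780). Ly6g, the neutrophil antigen gene, had 0 to 3 counts per library, and Ly6i, a close relative of Ly6a, had 5, 8 and 6 counts in KO-labelled and 11, 7 and 8 in WT-labelled replicates. Ly6d, a marker of B cell progenitors, had 0 to 2 counts.

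Of 32 tested genes of GPI anchor synthesis and attachment, 2 were lower (6.25%) and 1 higher (3.12%), against 10.1% and 7.23% of all tested genes, and the median log2 fold change was -0.025. Piga, the catalytic subunit of the first step, was at 45.2 ± 2.74 CPM in KO-labelled and 52.5 ± 1.73 CPM in WT-labelled libraries (log2 fold change -0.21, edgeR adjusted p = 0.00388). Gpaa1, a subunit of the transamidase that attaches the anchor, rose by 0.19 (adjusted p = 0.00228). Mppe1, an enzyme that remodels the anchor, fell by 0.17 (adjusted p = 0.0238), a call lost under 6 of 17 alternatives.

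Of 15 tested genes for other GPI-anchored proteins of lymphocytes, 3 were lower and 2 higher, where 10.1% and 7.23% of all tested genes were, with a median of -0.046. Cd48, a ligand of SLAM family receptors, was at 173 ± 4.20 CPM in KO-labelled and 218 ± 2.24 CPM in WT-labelled libraries, and Cd160, a receptor of cytotoxic lymphocytes, at 90.3 ± 2.46 and 115 ± 3.27 CPM (SD, n = 3 each). Their log2 fold changes were -0.33 and -0.35, and that of the semaphorin gene Sema7a was -0.45 (edgeR adjusted p = 8.08e-09, 2.03e-07 and 6.12e-07). Prnp, the prion protein gene, rose by 0.25 (adjusted p = 0.000212). Izumo1r, a folate receptor family gene, was the other that rose and was chosen after its value was seen, at 1.27 (adjusted p = 0.00603). Thy1, the most abundant of these genes and a classical T cell antigen, did not pass, at 1466 CPM in KO-labelled and 1514 CPM in WT-labelled libraries (log2 fold change -0.046, edgeR adjusted p = 0.145).

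Since Ly6a, Ly6c and Ly6e are known to be raised by interferons, a list of interferon-induced genes was set beside them. Of its 64 tested genes, 60 were lower (93.8%, against 10.1% of all tested genes) and 0 higher. The median log2 fold change was -0.39, beside 0.0014 over all tested genes. The members of the Ly6 set were not on this list. Gbp2, a guanylate-binding protein gene, was at 229 ± 3.04 CPM in KO-labelled and 425 ± 3.11 CPM in WT-labelled libraries (log2 fold change -0.89), and Gbp6, Iigp1 and Igtp had log2 fold changes of -0.70, -0.84 and -0.54. Several low-level genes of the list fell by more than Ly6c2, among them the antiviral genes Rsad2, Ifi44 and Ifit1, chosen after their values were seen, with log2 fold changes of -2.18, -1.94 and -1.86 (edgeR adjusted p = 1.61e-05, 0.000164 and 2.41e-06). Ly6c2 thus lay below the median of the list but within its range, Ly6a slightly below the median, and Ly6e above it. Of the 4 genes that did not pass, Rigi, Isg20, Oas1a and H2-K1, all had a log2 fold change below 0.

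Genes of memory-like and type 1 lymphocytes, the cells in which Ly6C is used as a marker, moved in both directions. Of 29 tested genes, 14 were lower (48.3%) and 6 higher (20.7%), against 10.1% and 7.23% of all tested genes, with a median of -0.22. Ccl5, a chemokine gene of memory cells, was at 5.92 ± 0.631 CPM in KO-labelled and 20.1 ± 0.939 CPM in WT-labelled libraries, and Cxcr3, a homing receptor gene, at 46.4 ± 0.885 and 71.6 ± 2.74 CPM (SD, n = 3 each). Eomes, a T-box factor gene, rose by 0.70 (edgeR adjusted p = 6.79e-16) and the chemokine gene Xcl1 by 0.49 (adjusted p = 1.66e-11). Cd44 and Il2rb, which mark memory-like cells, were chosen after their values were seen and had log2 fold changes of 0.11 and -0.033, of which that of Il2rb did not pass (edgeR adjusted p = 0.0268 and 0.222).

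**Figure D5:**
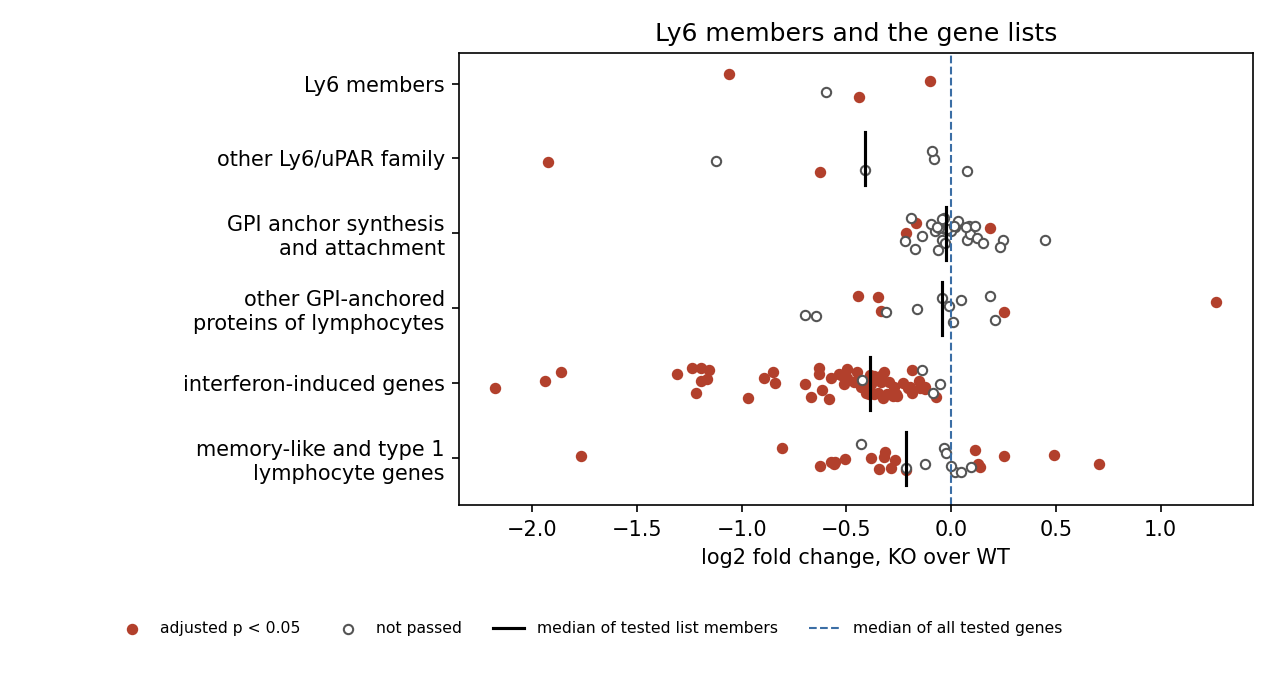
Log2 fold change of KO-labelled over WT-labelled libraries for the Ly6 members and for each tested gene of 5 lists, with the median of each list as a black line and that of all tested genes dashed. The Ly6 members all lie below 0, the interferon-induced genes lie below 0 with a median of -0.39, and the GPI anchor genes centre on -0.025.

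The genes whose pattern over the 6 libraries was most like that of a member were sought among 8437 other tested genes with a mean of at least 10 CPM. Likeness was the root mean square difference of log2 CPM, each gene centred on its own mean, and it is given as a description. For Ly6c2 the closest were AA467197, Rasa3, which encodes a GTPase-activating protein of Ras and Rap1, and the early response gene Egr1, at 0.036, 0.067 and 0.075 log2 units. AA467197 stood at 10.1, 11.1 and 11.3 CPM in KO-labelled replicates 1, 2 and 3 and at 23.1, 23.5 and 24.2 CPM in WT-labelled ones. For Ly6a they were Ogfrl1, Fam20a, a pseudokinase gene of the secretory pathway, and P2ry14, a UDP-glucose receptor gene, at 0.025, 0.027 and 0.029. Ly6e was closest to Atp6v0e, Tep1 and Chmp4b at 0.014, 0.014 and 0.015, with log2 fold changes of -0.079, -0.11 and -0.093. Atp6v0e and Tep1 did not pass (edgeR adjusted p = 0.209 and 0.0883). Chmp4b passed (adjusted p = 0.0341), a call lost under 9 of 17 alternatives. For Ly6c1, 3 genes were closest at 0.28 to 0.31, which reflects its own spread between libraries, and they were 1500009L16Rik, Gm8369 and Cd7. Between members, the distance was 0.32 for Ly6a and Ly6c2, 0.19 for Ly6a and Ly6e and 0.48 for Ly6c2 and Ly6e. These members were among the genes searched, so their distances could not be smaller than those to the closest genes.

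Other cells of the spleen that carry Ly6 antigens were looked for by their markers. Of 11 monocyte markers, 10 had a row and 4 were tested. Cd68 and Itgam, 2 of the tested ones, were lower and 1, Ccr2, was higher. Over all tested genes 10.1% were lower and 7.23% higher. The sum of the monocyte markers ran from 762 to 857 CPM in KO-labelled and from 743 to 790 CPM in WT-labelled libraries. Nearly all of it came from Ccr2, which T cells also express, and the next most abundant was Cd68 at 6.20 and 8.36 CPM. Csf1r, Lyz2 and Cd14, which define monocytes, averaged 0, 0.048 and 0.0093 CPM in KO-labelled and 0.047, 0.13 and 0.067 CPM in WT-labelled libraries. Neutrophil markers, 5 of 9 with a row and led by Mpo and S100a8, summed to 0.056 to 0.14 CPM under the KO label and 0.056 to 0.11 CPM under the WT label, and 0 of them had enough counts to be tested.

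Plasma cell markers, 3 of 7 with a row and led by Sdc1 and Mzb1, summed to 1.29 to 1.59 CPM in KO-labelled and 0.55 to 1.26 CPM in WT-labelled libraries. Dendritic cell markers, 4 of 7 with a row and led by Zbtb46 and Xcr1, summed to 1.48 to 1.91 CPM in KO-labelled and 0.89 to 1.46 CPM in WT-labelled libraries. B cell markers, 10 of 12 with a row and led by Cd79b and Blk, summed to 7.04 to 9.41 CPM in KO-labelled and 9.63 to 10.6 CPM in WT-labelled libraries, with Blk lower. Endothelial markers, 5 of 7 with a row, summed to 48.0 to 52.6 CPM in KO-labelled and 56.5 to 66.2 CPM in WT-labelled libraries, most of it Pecam1, which lymphocytes also express and which was lower, followed by Egfl7. Erythroid markers, 2 of 6 with a row and led by Hba-a1 and Alas2, stayed under 1 CPM in sum in every library. NK cell markers, 4 of 4 with a row and led by Klrb1c and Ncr1, summed to 74.3 to 78.8 CPM in KO-labelled and 73.2 to 79.1 CPM in WT-labelled libraries, nearly all of it Klrb1c at 76.3 and 73.8 CPM. Ncr1, which encodes an activating NK receptor, was lower, at 0.965 CPM in KO-labelled and 1.85 CPM in WT-labelled libraries (log2 fold change -0.93 ± 0.31, SE; edgeR adjusted p = 0.0398), and Klra8 had 0, 0 and 1 counts in KO-labelled and 1, 6 and 5 counts in WT-labelled replicates 1, 2 and 3. Of αβ T cell markers, 3 of 6 had a row, and the receptor genes Trac, Trbc1 and Trbc2 were not among them. Cd4 was at 0.463 CPM in KO-labelled and 0.522 CPM in WT-labelled libraries, Cd8a at 86.9 and 66.1 CPM and Cd8b1 at 17.8 and 18.1 CPM. Most of their sum thus came from Cd8a. As sums, T cell, γδ T cell, B cell and endothelial markers were lower in every KO-labelled than in every WT-labelled library. Sums of αβ T cell, plasma cell and dendritic cell markers were higher. Genes of 1 list did not all move alike. Of 4 tested γδ T cell markers, 2 were lower, where 10.1% of all tested genes were. Zbtb16 of this list, chosen after its value was seen, was higher without passing, at 0.863 CPM in KO-labelled and 0.409 CPM in WT-labelled libraries. Egfl7 was higher, at 6.06 and 4.75 CPM, and did not pass. Cd8a was the only αβ T cell marker that passed, and no plasma cell or dendritic cell marker did. T cell markers summed to 1921 to 1988 CPM in KO-labelled and 2037 to 2073 CPM in WT-labelled libraries, and αβ T cell markers to 103 to 107 and 84.2 to 85.0 CPM. The part of these cells in the Ly6 result was not tested.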

How the data were processed

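The samples were grouped by their titles, and every column of both tables matched a library by its title. Gene counts were deposited as whole numbers without normalization, and FPKM values were deposited beside them; the submitters' processing notes name fastp, HISAT2, HTSeq and the build GRCm39, with no version, setting, strand use or annotation stated. The deposited FPKM equal the deposited counts over the column total and 1 fixed length per gene in all 19390 genes (tolerance 0.01 bp).

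The test was edgeR 4.0.16 under R 4.3.3 (TMM scaling, filterByExpr by group, glmQLFit and glmQLFTest on the label alone, Benjamini-Hochberg adjustment over 12810 genes, threshold 0.05). The filter left out 0.0366% of counts, and TMM factors ran from 0.994 to 1.01. Each SE is the size of the log2 fold change divided by the root of its F statistic, and intervals are at 95%. The biological coefficient of variation was 4.16%. No pair of libraries of 1 label agreed within sampling noise (chi-square per degree of freedom from 3.27 to 7.27). The script was tested on simulated counts. Windows and alignments were computed with Biopython 1.88.

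Other settings tried were scaling by RLE, by upper quartile and by total count, no filter, 1 CPM in 3 libraries, a robust fit, DESeq2 1.42.0, limma 3.58.1 (voom, and trend on log2 FPKM after adding 0.1 or 1, where mean FPKM was at least 1), the replicate number as a block, and each library left out. Named were the members, every tested gene of the family and locus, up to 4 genes per list by smallest p (2 where fewer passed), the 3 closest patterns per member and the 2 most abundant markers per other cell type. The members and lists were chosen with earlier results of these data known, and ratios other than Ly6c2 to Ly6c1 were added after the data were seen.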

Additional observations from a re-analysis of the deposited data

How the results depend on the processing

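Ly6a, Ly6c2, Ly6a2 and the sum of Ly6c1 and Ly6c2 kept their direction and passed the threshold under every alternative run for them, with log2 fold changes from -0.47 to -0.41, -1.10 to -1.005, -0.65 to -0.59 and -1.09 to -1.004. Ly6e was lower throughout, from -0.12 to -0.071, but did not pass on log2 FPKM, at -0.090 with either pseudocount (limma-trend adjusted p = 0.0719 and 0.0717), and the cause was not tested. Ly6c1 passed nowhere, from -0.75 to -0.34, and gave no value under the filter of 1 CPM and on FPKM, where it was left out. Without KO-labelled replicate 2 its value was -0.34. The log2 ratio of Ly6c2 to Ly6c1 differed between labels by -0.76 to -0.20.

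Without 1 library, the count of changed genes ran from 1660 to 2256. No scaling moved the median of all genes by as much as 0.1. On log2 FPKM the family had 1 lower gene and the GPI-anchored list 1 higher one, since fewer genes were tested there. The GPI anchor list had 1 lower and 2 higher genes on log2 FPKM, and 1 or 2 of each without 1 library. Among genes that did not pass, leaving out single libraries turned the sign of 3: Ly6m ran from -0.26 to 0.091 (0.046 also positive), Arc from -0.058 to 0.31 (-0.018 also negative) and Them6 from -0.035 to 0.024. Values of Lynx1, Jrk and Lypd6b, none of which passed, kept their sign but ran from -0.69 to -0.17, 0.13 to 0.56 and -0.20 to -0.023.

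The labels state no pairing by replicate number. Correlations of deviations from the label means were 0.057, -0.011 and -0.031 for equal numbers, and not every library correlated best with its own number. With 3 libraries a label, such values cannot exclude a pairing. With the replicate number as a block, 1969 genes changed, and Ly6a, Ly6c1, Ly6c2 and Ly6e stood at -0.44, -0.61, -1.06 and -0.10 with unchanged calls. Counting error, as a coefficient of variation, reached 20.4% for Ly6c1 in KO-labelled libraries and was at most 1.06% for Ly6a, Ly6c2 and Ly6e, and the share of depth in the missing call of Ly6c1 was not tested.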
